A study of Oryzias latipes with 10 samples.

Results

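The yap single mutants are medaka embryos homozygous for a deletion of 7 bases in yap1. Their label names no mutation of yap1b. Their 3 libraries were set against wild type (WT) libraries 1, 2 and 3, and the fourth WT library is shown beside them. The fold changes rest on these 6 of the 10 libraries of the series. The spread behind the p-values was estimated within WT 1–3, within the single mutants and within the yap double mutants. The fourth WT library was in the fit but was matched exactly by the term that set it apart. Its distance from WT 1–3 therefore did not enter the spread. The members were the 16513 of 24365 genes in the count table whose counts averaged 10 or more across the 10 libraries. At the edge of this limit, 16 genes had a mean count of exactly 10 and 15 had 9.9.

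The study asked how the loss of Yap proteins changes gene expression while the embryo axis forms. It sequenced RNA of whole medaka (Oryzias latipes) embryos at stage 16, late in gastrulation. The groups were yap single mutants (yap-/-, 3 libraries), yap double mutants (yap-/- yap1b-/-, 3 libraries) and WT embryos (4 libraries). The study lists iCab as its wild-type strain. It does not give the strain of the sequenced WT embryos. Embryos were homogenized and genotyped one by one and their RNA was merged by genotype, so each library is a pool of embryos and p-values measure the spread between pools. The mutation is present in every cell of the embryo, and each mutant line carries 1 deletion allele per gene.

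Yap1 is a transcriptional co-activator that lies at the end of the Hippo kinase cascade. When cells are spread or under tension it enters the nucleus, binds DNA through TEAD factors and raises genes of the cytoskeleton, the cell surface and the extracellular matrix, among them its own inhibitors. In fish embryos it is known for its part in tissue tension, in the shape of the body and in epidermal and eye tissue.

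Gene counts summed to 22053738 in yap single mutant 1, 35214574 in single mutant 2 and 37776961 in single mutant 3, against 33804217 to 38383959 in WT 1–3 and 28978596 in WT 4. Libraries were compared by log2 CPM, counts scaled to the library total after adjustment by TMM. Across genes, which are not independent replicates, Pearson's r with WT 1 was 0.9636 for single mutant 1, 0.976 for single mutant 2 and 0.9852 for single mutant 3, against 0.9899 for WT 2, 0.9896 for WT 3 and 0.9522 for WT 4. WT 4 was set apart from WT 1–3 because of its expression values alone, and no label gives a reason for it. The test therefore carried a set term (WT 1–3 with the single mutants, WT 4 with the double mutants), called the technical set below. Placing WT 4 with the double mutants also rests on expression values. Whether the difference of WT 4 is technical or lies in the embryos was not tested. Most genes below are given with their WT 4 level.

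yap1 itself had 2657, 2993 and 2656 normalized counts in yap single mutants 1, 2 and 3, against 9358, 9131 and 9028 in WT 1, 2 and 3 and 5470 in WT 4. The 3 mutant libraries lay close together and below every WT library, and WT 4 lay between the groups. The log2 fold change was −1.73 (SE 0.11, adjusted p = 0.000768, edgeR quasi-likelihood test with Benjamini-Hochberg adjustment), the smallest p of all genes tested. Normalized counts are counts scaled by TMM to the mean library. Each SE is the size of the log2 fold change divided by the square root of the F statistic of the quasi-likelihood test. The gene lies on chromosome 13 of ASM223467v1, 6489854 to 6520557. Its paralog yap1b, on chromosome 14 (12999434 to 13012139), had 1856, 2296 and 2349 normalized counts in the single mutants, against 2416, 2270 and 2434 in WT 1–3 and 2704 in WT 4. These groups overlapped, and the difference of −0.13 on the log2 scale (SE 0.12) did not pass the test (adjusted p = 0.702 from edgeR).

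Below, a gene is called a DEG (differentially expressed gene) at an adjusted p under 0.05 over all genes tested, with no limit on its fold change. Every size of a fall or rise below is on the log2 scale, and values per library are normalized counts. There were 114 DEGs, 0.69% of the genes tested. Of these, 99 were lower (0.6%) and 15 were higher (0.0908%). At an unadjusted p under 0.05, 874 genes were lower (5.29%) and 841 were higher (5.09%). The lower DEGs had a median log2 fold change of −1.48, and 73 of them fell by more than 1 on the log2 scale and 25 by more than 2. In all 99 the yap single mutants lay below WT 1–3, and in 96 they lay below WT 4 as well, where 10.1% and 6.03% of all genes tested did so. The median over the 99 genes of the difference from WT 1–3 in log2(normalized count + 1) was −1.51 in single mutant 1, −1.33 in single mutant 2 and −1.41 in single mutant 3, against 0.17 in WT 4. The higher DEGs had a median log2 fold change of 1.78. In all 15 the yap single mutants lay above WT 1–3, but in only 10 above WT 4 too, where 10.5% and 3.47% of all genes tested did so. DEGs of either direction were called on these same libraries. Their separation from WT 1–3 and the medians per mutant library therefore follow from the call and add no support to it.

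**Figure D1:**
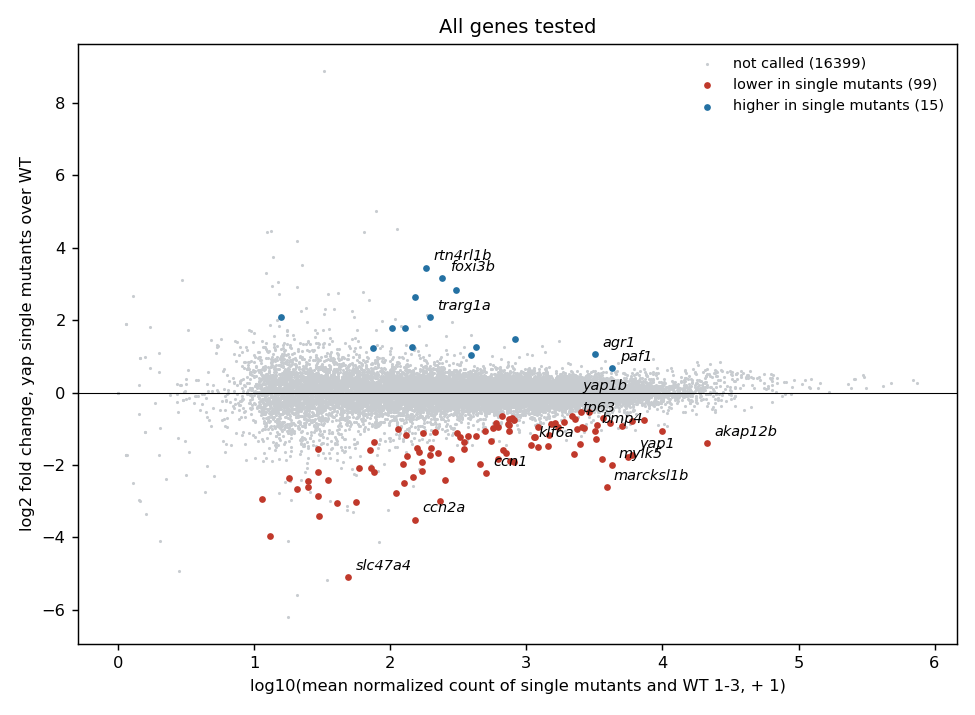
Each point is 1 of the 16513 genes tested, with the mean level of single mutants and WT 1–3 on the x axis (log10 of the normalized count + 1) and the log2 fold change of yap single mutants over WT on the y axis. The 99 lower DEGs (red) run from rare genes to akap12b, the most abundant of them, and the 15 higher DEGs (blue) are fewer and mostly of low or middle abundance.

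How many genes were called depended on the tool and on the libraries. DESeq2 in the same design called 316 lower and 125 higher genes, and edgeR with all 4 WT libraries as 1 group, without the double mutants, called 76 lower and 2 higher. Of the 59 named DEGs, 23 lost their call there, among them amotl2a, dlc1, vclb, adamtsl5 and every named higher DEG except tp53inp1 and zgc:165508. With only WT 1–3 and the single mutants, edgeR called 94 lower and 8 higher genes, of which 77 and 6 were among those above. In that fit 13 of the 59 named DEGs lost their call, among them amotl2a, dlc1, ACTA1, bmp16, foxo1, agr1, grik4 and zgc:165508. Without WT 1, WT 2 or WT 3 the lower DEGs were 27, 28 and 23, and without single mutant 2 or 3 they were 43 and 29. Without single mutant 1, the shallowest library, there were 106 lower and 15 higher DEGs, of which 78 and 10 were among those above. Of the 99 lower DEGs, 21 were called whichever of the 10 libraries was left out, among them yap1, ccn1, klf6a, rnd1a, bmp4, ptk2bb, fermt1, nexn, sned1 and zgc:101810.

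Of 4 measured genes for matricellular CCN proteins, 2 were lower DEGs and none was higher. Of all tested genes with a symbol, 4.14% were lower and 0.612% were higher DEGs. CCN proteins are secreted regulators of cell adhesion and classical readouts of Yap activity. ccn1 had 228, 158 and 154 normalized counts in the yap single mutants, against 963, 868 and 656 in WT 1–3 and 906 in WT 4. It fell by 2.22 on the log2 scale (SE 0.20, adjusted p = 0.00226 from edgeR), with the groups wide apart. For ccn2a the values were 36.6, 16.7 and 22.2 in the single mutants, against 307, 347 and 178 in WT 1–3 and 160 in WT 4. It had the largest fall of the Yap targets (log2 fold change −3.51, SE 0.57, adjusted p = 0.0285 from edgeR) and lay below every WT library, among which WT 3 and WT 4 were close to each other. The remaining measured CCN genes, ccn5 and ccn6, had log2 fold changes of −1.07 and −0.15 and did not pass the test.

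Of 17 measured Yap and TEAD target genes, 5 were lower DEGs, none was a higher DEG and 12 did not pass the test, with a list median of −0.75 on the log2 scale. The 5 were ccn1, ccn2a, amotl2a, amotl2b and marcksl1b, and each is counted again in the CCN, Hippo or actomyosin list. The study named marcksl1b a target in part from its RNA-seq data. The gene symbols come mostly from the study's own tables of changed genes, so that these counts are not independent evidence of a direction. Among all genes tested the median log2 fold change was 0.02, and among the 2124 with a symbol it was −0.25, with 4.14% lower and 0.612% higher DEGs. A negative log2 fold change was seen in 64.3% of the genes with a symbol and in 47.0% of all genes tested. Every list here is read against those shares.

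Within the Hippo pathway list, 3 of 23 measured genes were lower DEGs and none was a higher DEG. Lower DEGs made up 4.14% of tested genes with a symbol. Beside yap1 the lower DEGs of the list were amotl2a and amotl2b, angiomotin-like scaffolds that bind Yap and hold it outside the nucleus. amotl2a had 1052, 1353 and 1111 normalized counts in the single mutants, against 2184, 2225 and 1863 in WT 1–3 and 2056 in WT 4. Its change on the log2 scale was −0.83 (SE 0.13, adjusted p = 0.0264 from edgeR). amotl2b had 1642, 1900 and 1648 in the single mutants, against 3576, 3593 and 2879 in WT 1–3 and 3348 in WT 4, a change of −0.95 on the log2 scale (SE 0.16, adjusted p = 0.033 from edgeR). Neither gene's groups overlapped. The other 20 genes of the pathway, the kinases and the TEAD factors among them, had log2 fold changes between −1.08 and 0.91 with adjusted p of 0.0588 or more.

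**Figure D2:**
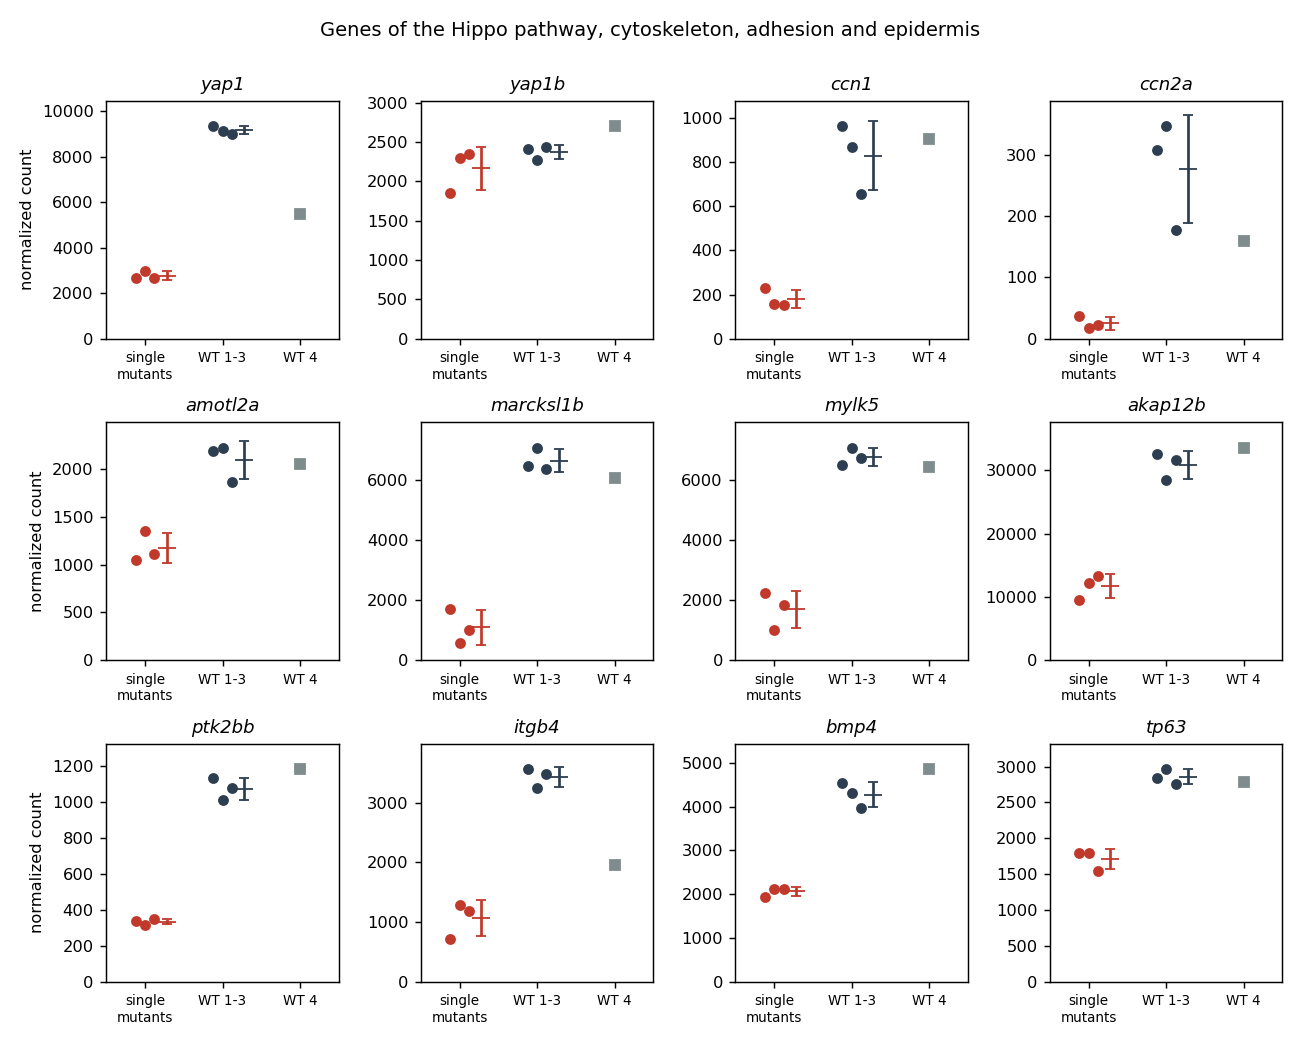
Normalized counts of 12 genes in each library, with yap single mutants (red) left of WT 1–3 (dark) and WT 4 (grey square); bars give the mean and SD of the 3 libraries. In each panel except yap1b the 3 mutant libraries lie below all 4 WT libraries, and for yap1 and itgb4 WT 4 lies well below WT 1–3.

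Of 51 measured actomyosin and actin-binding genes, 5 were lower DEGs, none was a higher DEG and 46 did not pass the test. The median log2 fold change was −0.45, and 4.14% of tested genes with a symbol were lower DEGs. All 51 genes together summed to 142841 to 144053 normalized counts per single mutant library, against 231679 to 233736 in WT 1–3 and 248073 in WT 4, so the summed level did not overlap. Very abundant members weighed heavily in this sum. marcksl1a, which was no DEG, averaged 23595 in the single mutants and 47022 in WT 1–3, and akap12b averaged 11692 and 30857. The 46 genes that did not pass had log2 fold changes from −1.01 to 1.18.

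marcksl1b encodes a protein of the MARCKS family that binds actin filaments and the plasma membrane. It had 1717, 569 and 1010 normalized counts in the single mutants, against 6488, 7094 and 6390 in WT 1–3 and 6083 in WT 4. It fell by 2.61 on the log2 scale (SE 0.32, adjusted p = 0.00949 from edgeR), and the mutant libraries differed among themselves by more than the WT libraries did. akap12b, a membrane scaffold for protein kinases A and C, was the most abundant of the lower DEGs. It had 9538, 12256 and 13283 in the single mutants, against 32543, 28417 and 31610 in WT 1–3 and 33598 in WT 4 (log2 fold change −1.40, SE 0.21, adjusted p = 0.02 from edgeR). zgc:101810, which 1 of the study's tables names actr2b after the actin-related protein of the branching complex, had 239, 261 and 304 in the single mutants, against 869, 1035 and 995 in WT 1–3 and 1398 in WT 4. Its change on the log2 scale was −1.85 (SE 0.19, adjusted p = 0.0036 from edgeR). The smoothelin-like gene smtnl fell by 1.24 (SE 0.15, adjusted p = 0.00892 from edgeR), with 617 to 721 normalized counts in the single mutants and 1539 to 1633 in WT 1–3. tpm4a, a tropomyosin that stabilizes actin filaments, fell by 0.76 (SE 0.13, adjusted p = 0.0328 from edgeR).

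The next genes, mylk5, nexn and ACTA1, are not among the 51 list members and were named for the size of their falls. mylk5, of the myosin light chain kinases that switch on contraction, had 2224, 1017 and 1852 normalized counts in the single mutants, against 6500, 7079 and 6719 in WT 1–3 and 6431 in WT 4. It fell by 2.00 (SE 0.26, adjusted p = 0.0125 from edgeR). nexn (nexilin, an actin filament binding protein) had 53.2, 67.8 and 63.3 in the single mutants, against 327, 297 and 212 in WT 1–3 and 220 in WT 4. It fell by 2.17 (SE 0.22, adjusted p = 0.00389 from edgeR). The gene named ACTA1 in the study's tables, an alpha actin, had 51.5, 22.9 and 71.5 in the single mutants, against 232, 230 and 272 in WT 1–3. WT 4 had 90.1, near the mutant libraries, and its call (log2 fold change −2.33, SE 0.39, adjusted p = 0.0328 from edgeR) was lost when all WT libraries were taken as 1 group.

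Of 22 measured Cdc42 effector and polarity genes, 2 were lower DEGs, where 4.14% of tested genes with a symbol were. rnd1a had 2062, 1746 and 1907 normalized counts in the single mutants, against 4770, 4565 and 4479 in WT 1–3 and 6377 in WT 4. It fell by 1.27 (SE 0.11, adjusted p = 0.00226 from edgeR). dlc1, whose protein is found at focal adhesions, had 2551, 2616 and 3123 in the single mutants, against 4683, 4452 and 4489 in WT 1–3 and 4786 in WT 4 (log2 fold change −0.72, SE 0.11, adjusted p = 0.0242 from edgeR). SYDE1, a rarer gene outside the list, had 28.3, 24.7 and 27.9 normalized counts in the single mutants, against 121, 154 and 96.1 in WT 1–3 and 83.4 in WT 4. It fell by 2.2 (SE 0.37, adjusted p = 0.033 from edgeR).

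Focal adhesions tie the actin cytoskeleton to the matrix through integrins. Of their 21 measured adaptors and kinases, 4 were lower DEGs and the other 17 also had negative log2 fold changes (−1.58 to −0.08) without passing the test. Among tested genes with a symbol, 64.3% had negative changes and 4.14% were lower DEGs. ptk2bb, a kinase of the focal adhesion kinase family, had 337, 318 and 347 normalized counts in the single mutants, against 1134, 1011 and 1075 in WT 1–3 and 1181 in WT 4. The mutant libraries agreed closely, and the log2 fold change was −1.68 (SE 0.19, adjusted p = 0.00583 from edgeR). fermt1 (kindlin, an integrin activator) had 1695, 1486 and 1555 in the single mutants, against 3271, 3156 and 3054 in WT 1–3 and 4919 in WT 4. It fell by 1.00 (SE 0.11, adjusted p = 0.00657 from edgeR). The kinase src, with 1197, 954 and 1065 in the single mutants against 2032, 1814 and 2015 in WT 1–3, fell by 0.87 (SE 0.15, adjusted p = 0.033 from edgeR). vclb (vinculin, which strengthens adhesions under load) had the smallest fall of the 4, with 1680, 1724 and 1657 in the single mutants against 2720, 2762 and 2462 in WT 1–3 (log2 fold change −0.65, SE 0.09, adjusted p = 0.0174 from edgeR). apbb1ip, an adaptor that brings talin to integrins, is not among the 21 list members and was named for the size of its fall. It had 21.6, 39.6 and 21.4 in the single mutants, against 202, 188 and 186 in WT 1–3 and 150 in WT 4. It fell by 2.78 (SE 0.50), near the limit of the test (adjusted p = 0.0456 from edgeR).

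Of 13 measured integrin subunits, 2 were lower DEGs and none was higher, where 4.14% and 0.612% of tested genes with a symbol were. itgb4, the beta subunit of hemidesmosomes in basal epidermis, had 718, 1280 and 1189 normalized counts in the single mutants, against 3562, 3240 and 3485 in WT 1–3 and 1955 in WT 4. It fell by 1.69 (SE 0.29, adjusted p = 0.0366 from edgeR), a call that was lost with all WT libraries as 1 group. itga3b had 530, 968 and 776 in the single mutants, against 2277, 1929 and 2154 in WT 1–3 and 2836 in WT 4 (log2 fold change −1.48, SE 0.26, adjusted p = 0.0386 from edgeR). The 11 other subunits did not pass the test, and their log2 fold changes ran from −3.25 (itgb6) to 0.60 (itga6b).

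The matrix list, the largest of the lists, had the most lower DEGs in number, 10 of 56 measured genes, with none higher. Its median log2 fold change was −0.52. Lower DEGs made up 4.14% of tested genes with a symbol. sned1, a secreted glycoprotein of the interstitial matrix, had 63.2, 94.2 and 54.2 normalized counts in the single mutants, against 271, 285 and 250 in WT 1–3 and 207 in WT 4. It fell by 1.92 (SE 0.23, adjusted p = 0.00892 from edgeR). frem2b, a large protein of the epidermal basement membrane of the same complex as frem1a, had 110, 212 and 222 in the single mutants, against 825, 538 and 815 in WT 1–3 and 548 in WT 4. Its change on the log2 scale was −1.99 (SE 0.27, adjusted p = 0.0146 from edgeR). frem1a averaged 322 ± 72.6 in the single mutants and 1195 ± 109 in WT 1–3 (SD, n = 3 each), with 1068 in WT 4, and fell by 1.88 (SE 0.32, adjusted p = 0.033 from edgeR). fbln1 (fibulin) and adamtsl5 fell, with log2 fold changes of −0.81 (SE 0.12) and −1.23 (SE 0.18), both with an adjusted p of 0.0181 from edgeR. The collagens col1a1b and col9a2 fell too, at −1.96 (SE 0.35) and −1.57 (SE 0.28), with adjusted p of 0.04 and 0.0406 from edgeR. The other lower DEGs of the list were emilin2b, the protease gene ADAMTS5 and mfap4. Of these, mfap4 was rare, with means of 2.0 normalized counts in the single mutants and 18.7 in WT 1–3. The summed level of the list overlapped between the groups, with 79588, 148789 and 106563 in the single mutants, against 145528 to 161036 in WT 1–3 and 95089 in WT 4.

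**Figure D3:**
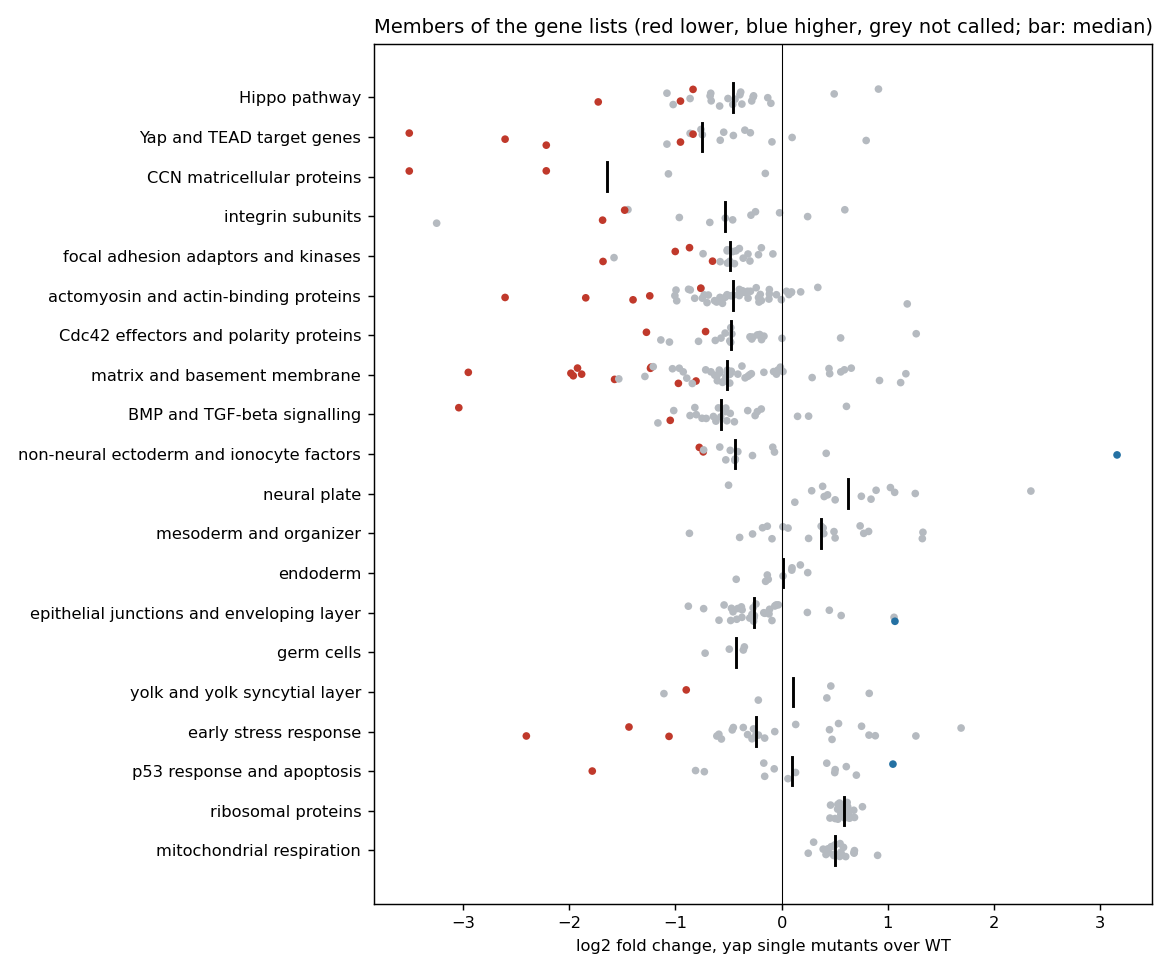
Each point is a measured member of the list named on the y axis, placed by its log2 fold change of yap single mutants over WT (x axis), in red for lower, blue for higher and grey for no DEG; black bars are list medians. The medians of the adhesion, cytoskeleton and matrix lists lie left of 0, and these lists hold red points. Some integrin, cytoskeleton and matrix genes lie right of 0. All points of the ribosomal and mitochondrial lists lie right of 0 and are grey. Of all tested genes with a symbol, 64.3% lie left of 0.

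In whole embryos, fewer cells of a type and less RNA per cell cannot be told apart. bmp4, a ligand that patterns ventral tissue and non-neural ectoderm, had 1941, 2123 and 2119 normalized counts in the single mutants, against 4529, 4307 and 3965 in WT 1–3 and 4857 in WT 4. It fell by 1.05 (SE 0.11, adjusted p = 0.0036 from edgeR). Of 25 measured genes of BMP and TGF-beta signalling, the only other DEG was bmp16, a further BMP ligand, with 13.3, 2.64 and 10.7 in the single mutants, against 77.0, 77.4 and 56.2 in WT 1–3 and 11.1 in WT 4. Its change on the log2 scale was −3.04 (SE 0.48, adjusted p = 0.0264 from edgeR), WT 4 lay at the mutant level, and the call was lost with all WT libraries as 1 group. Among tested genes with a symbol, 4.14% were lower DEGs.

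Of 15 measured non-neural ectoderm and ionocyte factors, 2 were lower and 1 was higher. Lower DEGs were 4.14% and higher DEGs 0.612% of tested genes with a symbol. gata2a, a GATA factor of non-neural ectoderm, had 4223, 4816 and 4167 normalized counts in the single mutants, against 7435, 7923 and 7253 in WT 1–3 and 7233 in WT 4 (log2 fold change −0.78, SE 0.11, adjusted p = 0.0181 from edgeR). tp63, the master factor of basal epidermis, had 1800, 1793 and 1544 in the single mutants, against 2845, 2966 and 2757 in WT 1–3 and 2783 in WT 4. It fell by 0.74 (SE 0.12, adjusted p = 0.0255 from edgeR). foxi3b, a forkhead factor that in zebrafish specifies ionocytes of the skin, was higher instead, with 494, 448 and 357 in the single mutants, against 47.3, 37.4 and 59.8 in WT 1–3. The rise of 3.16 on the log2 scale (SE 0.24, adjusted p = 0.00128 from edgeR) had the smallest p of the higher DEGs. In WT 4 the gene had 265 normalized counts, below each mutant library but far above WT 1–3, and with all WT libraries as 1 group the call was lost. Among the 12 other factors the log2 fold changes were −0.73 to 0.42.

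Of 25 measured genes of the early stress response, 3 were lower DEGs and none was higher, against 4.14% lower among genes with a symbol. klf6a, a zinc finger factor, had 632, 593 and 531 normalized counts in the single mutants, against 1722, 1597 and 1432 in WT 1–3 and 2214 in WT 4, and fell by 1.44 (SE 0.13, adjusted p = 0.00215 from edgeR). The gene named JUND, a subunit of the AP-1 factor, had 11.6, 9.69 and 10.7 in the single mutants, against 44.9, 61.4 and 63.5 in WT 1–3 and 70.1 in WT 4 (log2 fold change −2.41, SE 0.34, adjusted p = 0.0172 from edgeR). plk2b, a polo-like kinase, fell by 1.06 (SE 0.17, adjusted p = 0.0264 from edgeR). The remaining 22 had log2 fold changes on both sides of 0, from −0.61 to 1.69.

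Several of the largest or surest falls were outside these groups. slc47a4, of a family of transporters that export organic cations, had 0, 2.64 and 4.11 normalized counts in the single mutants, against 45.7, 131 and 104 in WT 1–3. Its fitted log2 change of −5.09 (SE 0.63, adjusted p = 0.00949 from edgeR) rests on a few counts in the mutants, WT 4 had only 6.67, and the call was lost with all WT libraries as 1 group. The coiled-coil gene ccdc85al had 34.9, 41.4 and 34.5 in the single mutants, against 185, 231 and 218 in WT 1–3 and 289 in WT 4 (log2 fold change −2.51, SE 0.24, adjusted p = 0.00333 from edgeR). ftr82, of the fish TRIM family, had 934, 912 and 869 in the single mutants, against 2152, 2097 and 1836 in WT 1–3 and 2972 in WT 4 (−1.16 on the log2 scale, SE 0.12, adjusted p = 0.0036 from edgeR). ndrg4 fell by 2.1 (SE 0.28, adjusted p = 0.0149 from edgeR), with 24.9, 19.4 and 36.1 in the single mutants against 117, 106 and 125 in WT 1–3. Of the 114 DEGs, 11 lower and 2 higher ones had no symbol. The surest were ENSORLG00000026742 (log2 fold change −2.41) and ENSORLG00000008846 (−1.43) among the lower and ENSORLG00000011759 (1.25) and ENSORLG00000026550 (1.27) among the higher.

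Few genes were called higher, and for many of these DEGs WT 4 lay nearer to the single mutants than to WT 1–3 (8 of 15, against 12 of the 99 lower DEGs). trarg1a, a membrane protein of glucose transporter vesicles in mammals, had 299, 287 and 358 normalized counts in the single mutants, against 68.2, 67.6 and 86.1 in WT 1–3 and 720 in WT 4. The log2 fold change over WT 1–3 was 2.09 (SE 0.23, adjusted p = 0.00587 from edgeR), while WT 4 was higher than any mutant library. rtn4rl1b, of the Nogo receptor family, had 256, 387 and 354 in the single mutants, against 24.1, 57.0 and 9.97 in WT 1–3 and 315 in WT 4 (log2 fold change 3.45, SE 0.54, adjusted p = 0.0248 from edgeR). il13ra2, a decoy receptor for interleukin 13, had 133, 202 and 142 in the single mutants, against 48.9, 49.8 and 39.9 in WT 1–3 and 100 in WT 4, a change of 1.78 on the log2 scale (SE 0.23, adjusted p = 0.0103 from edgeR). The calls of trarg1a, rtn4rl1b and il13ra2 were lost with all WT libraries as 1 group.

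Among the higher DEGs in which WT 4 lay near WT 1–3 were tp53inp1, a p53-inducible nuclear protein, and agr1, a secretory protein of the anterior gradient family. tp53inp1 had 492, 612 and 471 normalized counts in the single mutants, against 262, 252 and 248 in WT 1–3 and 298 in WT 4 (log2 fold change 1.05, SE 0.15, adjusted p = 0.0172 from edgeR). It was 1 of the 2 DEGs among 14 measured genes of the p53 response and apoptosis. The other, boka, a pro-apoptotic Bcl-2 family gene, fell by 1.78 (SE 0.21, adjusted p = 0.00829 from edgeR), with 3377, 1742 and 2447 in the single mutants against 8255, 9514 and 8259 in WT 1–3 and 7617 in WT 4. agr1 had 5777, 3531 and 3599 in the single mutants, against 2212, 2015 and 1921 in WT 1–3 and 2132 in WT 4 (log2 fold change 1.07, SE 0.20, adjusted p = 0.0467 from edgeR), with single mutant 1 above the other 2. It was the only DEG of 32 measured genes of epithelial junctions and the enveloping layer, the outermost cell sheet of the fish gastrula.

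**Figure D4:**
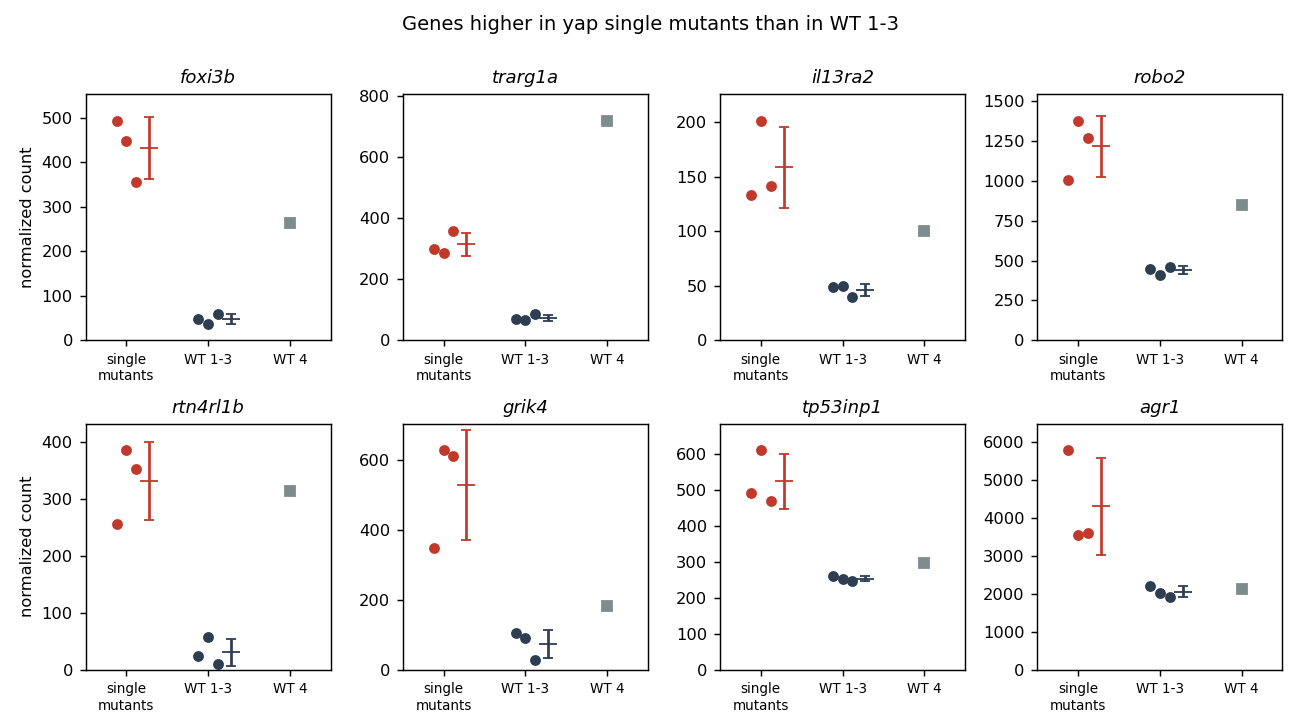
Normalized counts of 8 higher DEGs in each library, with yap single mutants (red) left of WT 1–3 (dark) and WT 4 (grey square); bars give the mean and SD of the 3 libraries. WT 4 lies above the mutant libraries for trarg1a, among them for rtn4rl1b, between the groups for foxi3b, il13ra2, robo2 and grik4, and near WT 1–3 for agr1 and tp53inp1.

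Genes that mark the other tissues of the gastrula gave few DEGs. None of 14 neural plate, 19 mesoderm and organizer, 9 endoderm or 4 germ cell genes was a DEG with edgeR. At an unadjusted p under 0.05, 6 neural plate and 7 mesoderm genes were higher and 1 of each was lower, 1 endoderm gene was lower, and 3 germ cell genes were lower. DESeq2 called 1 lower and 2 higher neural plate genes and 2 lower germ cell genes, and no gene of the mesoderm or endoderm lists. Of the neural plate genes 13 of 14 had a positive log2 fold change (median 0.63), and of the mesoderm genes 13 of 19 (median 0.37). By comparison, 64.3% of tested genes with a symbol had a negative one. The summed neural plate level was 12634 to 15022 normalized counts in the single mutants, against 10768 to 11708 in WT 1–3 and 12671 in WT 4. The smallest p in each list belonged to genes that did not pass: pax7, of the dorsal neural tube, at 2.35 on the log2 scale (SE 0.60, adjusted p = 0.166 from edgeR), msgn1, of presomitic mesoderm, at 0.77 (SE 0.23, adjusted p = 0.258), gata6, of endoderm, at −0.43 (SE 0.19, adjusted p = 0.481), and tdrd7b, of germ cells, at −0.72 (SE 0.15, adjusted p = 0.081).

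Of 6 measured yolk and yolk syncytial layer genes, serpina1l, a protease inhibitor, fell by 0.90 (SE 0.15, adjusted p = 0.0366 from edgeR), while the list summed to 101784, 83204 and 80175 normalized counts in the single mutants, against 72755 to 79224 in WT 1–3 and 96609 in WT 4. Among tested genes with a symbol, 64.3% had a negative log2 fold change. All 28 ribosomal protein genes and all 21 genes of mitochondrial respiration had positive log2 fold changes, 0.46 to 0.76 and 0.25 to 0.91, and none passed the test. At an unadjusted p under 0.05, 18 and 16 of them were higher with edgeR, and DESeq2 called none. The ribosomal list summed to 1006583, 536815 and 587152 in single mutants 1, 2 and 3, against 458450 to 509993 in WT 1–3 and 632590 in WT 4. Single mutant 1 was thus far above the others. It also had 1727 genes more than 1 below the mean of WT 1–3 in log2(normalized count + 1), where single mutant 2 had 545, single mutant 3 had 319 and WT 4 had 848. The part of these differences in the DEGs was not tested beyond leaving out single mutant 1.

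A last pattern concerned the chromosome of yap1. Of 89 tested genes placed on chromosome 13, 13 beside yap1 were DEGs (14.8%), 7 lower and 6 higher. On all other chromosomes 79 of 1420 placed genes were DEGs (5.56%), 76 lower and 3 higher, so that 6 of the 9 higher DEGs with a position lay on the chromosome of yap1. Higher shares of lower DEGs were seen elsewhere, with 7 of 53 placed genes (13.2%) on chromosome 19 and 11 of 87 (12.6%) on chromosome 4, against 8.99% on chromosome 13 with yap1 counted. Neither chromosome 19 nor chromosome 4 had a placed higher DEG. Positions were known for genes with a symbol that matched RefSeq, 1509 of those tested. As the symbols come mostly from the study's tables of changed genes, these shares are not rates over all genes of a chromosome. Among all genes tested, 0.69% were DEGs. All 13 lay on the side of yap1 with 78 placed genes and within 13.35 Mb of its start, and none of the 10 placed genes on the other side was a DEG. This grouping was noticed after the values were seen and has no test.

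The genes nearest to yap1 among these DEGs were FAM181B at 0.51 Mb, zgc:153184 at 0.56 Mb and the forkhead factor foxo1 at 0.86 Mb. zgc:153184 had 36.6, 44.9 and 69.8 normalized counts in the single mutants, against 416, 368 and 438 in WT 1–3, and fell by 2.99 (SE 0.25, adjusted p = 0.00177 from edgeR). WT 4 had 73.4, close to the mutant libraries, and the call was lost with all WT libraries as 1 group. robo2, a receptor for Slit guidance cues 2.52 Mb away, had 1004, 1377 and 1267 in the single mutants, against 446, 412 and 461 in WT 1–3 and 846 in WT 4 (log2 fold change 1.47, SE 0.21, adjusted p = 0.0174 from edgeR). paf1, of the complex that travels with RNA polymerase II, had 5740, 5014 and 5026 in the single mutants, against 3142, 3519 and 3232 in WT 1–3 and 6854 in WT 4 (0.67 on the log2 scale, SE 0.11, adjusted p = 0.033 from edgeR). Farther out lay grik4, a kainate receptor subunit (349, 630 and 612 in the single mutants, against 104, 89.9 and 27.2 in WT 1–3 and 181 in WT 4), with a change of 2.84 on the log2 scale (SE 0.45, adjusted p = 0.0269 from edgeR).

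Of the other placed DEGs there, alp3, an alkaline phosphatase, and its neighbour zgc:165508 rose by 2.63 and 1.78. dscaml1, a cell adhesion molecule, and p2ry1, a nucleotide receptor, fell, at −1.93 and −1.54. For dscaml1, WT 4 had 364 normalized counts, against 226, 338 and 442 in the single mutants and 1236, 1053 and 1575 in WT 1–3. The calls of alp3, dscaml1 and foxo1 were lost with all WT libraries as 1 group. WT 4 was nearer to the single mutants than to WT 1–3 in 7 of these 13 DEGs, against 6 of the 79 placed elsewhere (7.59%). Embryos were sorted by their yap1 genotype, and those homozygous for the allele may share other differences on the same chromosome copies. Such differences were not examined here. Effects of the allele and of other differences on the same copies cannot be told apart for these genes. frem2b, bmp16 and smtnl, counted in the lists above, are among them.

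**Figure D5:**
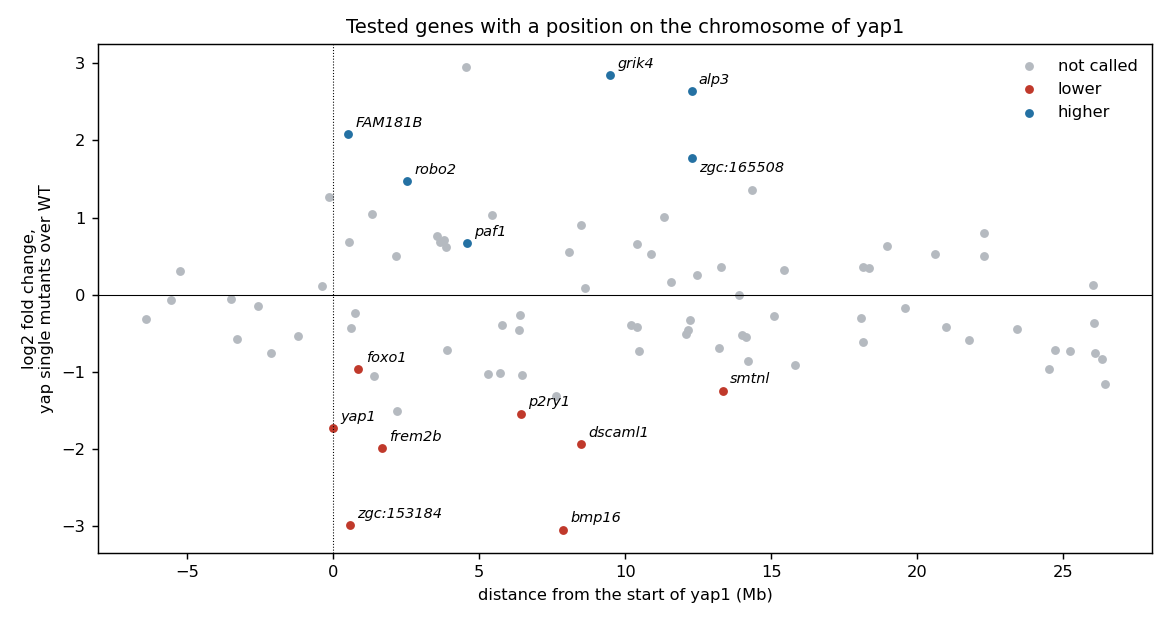
Each point is a tested gene with a position on chromosome 13, placed by its distance from the start of yap1 (x axis, Mb) and its log2 fold change of yap single mutants over WT (y axis). All 13 DEGs beside yap1, 7 lower (red) and 6 higher (blue), lie between 0.51 and 13.35 Mb on 1 side.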

How the data were processed

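Counts per gene were analysed for 10 libraries of whole medaka embryos. The authors trimmed the first 12 bases (Trimmomatic 0.39), required 50 bases and a mean quality of 20, removed ribosomal reads (sortmerna 2.1), aligned with Hisat2 2.1 to ASM223467v1, kept mapping qualities from 60 and deposited raw whole-number counts from htseq-count on Ensembl 99; whether strand was used is not given in the sources used here, so overlapping antisense genes may share reads. The 5 summary entries that name no gene were left out (10.61% to 11.27% of entries in no feature, 7.943% to 9.859% ambiguous).

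Genes averaging 10 counts or more were fitted over all 10 libraries in edgeR 4.0.16 (R 4.3.3) with TMM, a design of genotype and technical set, the older form of the quasi-likelihood test and Benjamini-Hochberg adjustment. The sets rest on expression values. DESeq2 1.42.0 was an alternative. Symbols (2208 genes) came from the study's tables and positions (1541) from RefSeq of the same build. Members, gene lists, tests and the naming rule were chosen with earlier results of these data known. Named genes are yap1, yap1b, the 15 largest falls and 8 largest rises with a symbol, 50 normalized counts in the higher group and no overlap with WT 1–3, the 10 smallest p, up to 4 DEGs per list (or 2 genes where none passed), and, chosen after their values were seen, DEGs on chromosome 13. Scripts were tested on simulated data. Promoter sequences were not analysed here.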

Additional observations from a re-analysis of the deposited data

Results flagged for a closer look

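In the WT group of 4, a library was singled out where its gap to the nearest other library took up more of the group's range than Dixon's limit for 4 samples allows, which chance gives for about 1 in 20 groups. This held for 15 of the 72 named genes, and the library was WT 4 in 14 of them. WT 4 had been set apart by its expression values and most of these genes were named for their difference from WT 1–3, so the number restates that choice and is no test. WT 4 was far above WT 1–3 for foxi3b (265 normalized counts, against 37.4 to 59.8), trarg1a (720, against 67.6 to 86.1), il13ra2 (100, against 39.9 to 49.8), robo2 (846, against 412 to 461), rtn4rl1b (315, against 9.97 to 57.0), FAM181B (22.2, against 4.45 to 6.42), paf1 (6854, against 3142 to 3519) and ENSORLG00000011759 (189, against 78.6 to 95.2), all higher DEGs of the yap single mutants. It was also above for the lower DEGs rnd1a (6377, against 4479 to 4770) and fermt1 (4919, against 3054 to 3271) and for the genes without a call pax7 (180, against 6.42 to 9.07), rpl36 (12613, against 8412 to 8573) and rpl39 (26962, against 13131 to 13960). For yap1 it was far below (5470, against 9028 to 9358). For ca15b it was WT 3 that lay below (5873, against 6168 to 6178).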

How the results depend on the processing

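Every named DEG kept its direction under all alternatives in which it was tested, but the numbers of DEGs moved. DESeq2 called 316 lower and 125 higher genes. Higher DEGs were 8 with only WT 1–3 and the single mutants, 2 with WT 1–4 and the single mutants without the technical set, and 6 with all libraries without it. Without 1 library at a time, edgeR called 23 to 146 lower and 2 to 23 higher genes; the counts without each library were 27 and 2 (WT 1), 28 and 3 (WT 2), 23 and 3 (WT 3), 43 and 5 (single mutant 2), 29 and 5 (single mutant 3), 146 and 23 (double mutant 1) and 71 and 5 (double mutant 2). Size factors of DESeq2, no filter or a mean count of 50 gave 91 to 105 lower and 14 to 16 higher genes, and the newer form of the quasi-likelihood test, chosen after seeing the data, gave 118 and 17.

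The yap1 log2 fold change ran from −1.79 to −1.57 on the log2 scale. No label pairs libraries of equal number, and their deviations from the group means had an r of −0.0128 to 0.184 across genes (−0.200 to 0.124 for unequal numbers). With the replicate block over WT 1–3 and the single mutants, edgeR called 0 lower and 0 higher genes (913 and 536 at an unadjusted p under 0.05), and yap1 kept −1.74 with an adjusted p of 0.0538. With the block few residual degrees of freedom were left.

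With 3 pools a group, the design reaches mostly large or very even changes, and a gene without a call is not shown to be unchanged. The exact permutation test over 3 against 3 libraries cannot go below 0.10, so no single-gene permutation test was run. The technical set and WT 4 cannot be told apart.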
